A study of Mus musculus with 64 samples.

Results

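Genes for 6 subunits of voltage-gated sodium channels were followed across the 5 groups and 2 ventricles of a mouse study of arrhythmogenic right ventricular cardiomyopathy (ARVC). The 6 were 3 genes for pore-forming α subunits (Scn4a, Scn7a and Scn10a) and 3 for auxiliary β subunits (Scn2b, Scn3b and Scn4b), taken by symbol from 39152 named genes. RNA from the right ventricle (RV) and left ventricle (LV) of 32 C57BL6 mice had been sequenced, 64 libraries in all. Every animal carried floxed Pkp2 alleles, and Pkp2 encodes the desmosomal protein plakophilin-2. The cKO animals (n = 4) also carried a tamoxifen-inducible Cre driven by the αMyHC promoter, which is active in cardiomyocytes, and received the vehicle HBSS. A further 3 cKO groups received 1 injection of an adeno-associated virus serotype 9 that carries mouse Pkp2. AAV_3E13 animals (n = 8) were given 3E13 vector genomes per kg and AAV_1E14 animals (n = 5) 1E14, in each case 1 week before tamoxifen by label (the sources used here differ on this, and 1 account places it 1 week after), and AAV_1E14_2.5wk animals (n = 6) were given 1E14 at 2.5 weeks after tamoxifen. WT animals (n = 9) were littermates without Cre that received HBSS. The series is titled as a study at 51 weeks, whereas the hearts of the untreated cKO animals were collected earlier by the study's account, so in every comparison with that group the genotype or vector cannot be told apart from the age at collection.

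Voltage-gated sodium channels open when a membrane is depolarised and carry the fast inward current that starts the action potential and lets it spread from cell to cell. An α subunit forms the pore, and β subunits, which are single-pass membrane proteins that have an immunoglobulin-like domain outside the cell, alter gating and surface expression and act in adhesion. In ventricular cardiomyocytes sodium channels are concentrated at the intercalated disc, beside the desmosomes that contain plakophilin-2. Scn4a encodes Nav1.4, known as the α subunit of skeletal muscle. Scn10a encodes Nav1.8 of sensory neurons. Scn7a encodes Nax, an atypical member that responds to the extracellular sodium level rather than to voltage and is known from glia, including Schwann cells. Scn2b, Scn3b and Scn4b encode β2, β3 and β4.

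The tests used 5.34 M to 10.2 M estimated counts per library (M stands for 1e+06, mitochondrially encoded genes left out). The unit of level is CPM, the counts of a gene per 1e+06 counts used once libraries had been scaled, with mean ± SD over animals, and differences are log2 fold changes with their standard errors (SE) from edgeR's quasi-likelihood test, adjusted by the Benjamini-Hochberg method over all genes tested in that comparison. A gene is said to have risen or fallen where the adjusted p was below 0.05. Pkp2 ran at 38.7 to 100.1 CPM in cKO RV, against 123 to 185 CPM in WT RV. In LV it ran at 34.9 to 88.3 CPM in cKO LV, against 162 to 220.0 CPM in WT LV. The groups did not overlap in either ventricle. The 8 cardiomyocyte markers were present in every group. Library WT_RV_5819 held more atrial transcripts than the other WT RV libraries (a summed level of 6 atrial markers of 751 CPM, against a median of 33.8 CPM in WT RV), and AAV_1E14_2.5wk_RV_5814 was the only 1 of 64 libraries with at least 100 counts of both Xist (2303) and the Y-linked Ddx3y (870.0), whereas the LV library of that animal had 24151 and 0. Results that changed without either are given with and without it.

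Of the 6 genes 3 had ample counts (Scn4a, Scn7a and Scn4b) and 3 were near the limit of detection. Levels of different genes can be set against each other only per length, and the deposited TPM (transcripts per 1e+06 transcripts) was used for that. Over the 64 libraries Scn7a ran from 9.84 to 45.2 (median 20.4) TPM, Scn4a from 0.457 to 16.2 (median 6.78) TPM and Scn4b from 0.0804 to 11.6 (median 5.45) TPM. Scn3b ran from 0.101 to 2.22 (median 0.594) TPM, Scn10a from 0 to 2.08 (median 0.413) TPM and Scn2b from 0 to 0.729 (median 0.160) TPM. Scn7a was above Scn4a in 63 of 64 libraries and above Scn4b in all 64. Scn4a was above Scn4b in 54 of 64, and Scn3b above Scn10a in 40 of 64, so neighbours in these pairs were not separated in every library. Scn2b had 0 to 24 counts in a library and was at 0 in 2 libraries. It passed edgeR's filter on low counts in 4 of the 18 comparisons between groups and in none of the 5 between ventricles, and is too low to test in the rest of these. It also passed in each later test of whether a difference from WT was the same in both ventricles. Scn10a was listed at 0 in 18 libraries and Scn3b had 4 to 53 counts, so neither can show a small difference. By their GRCm39 positions Scn2b (chr9:45029080-45041368) and Scn4b (chr9:45049595-45065452) lie in the same orientation with 8226 bases between them, and Scn3b (chr9:40179378-40203052) and Scn10a (chr9:119435988-119548388) lie on the same chromosome. Scn4a (chr11:106208370-106256385) and Scn7a (chr2:66503769-66615367) lie on other chromosomes. Exons of Scn4a overlap those of Prr29 and exons of Scn4b those of Gm39327, each on the opposite strand. Whether the quantification used strand is not given in the sources used here, so reads of such partners cannot be told apart.

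**Figure D1:**
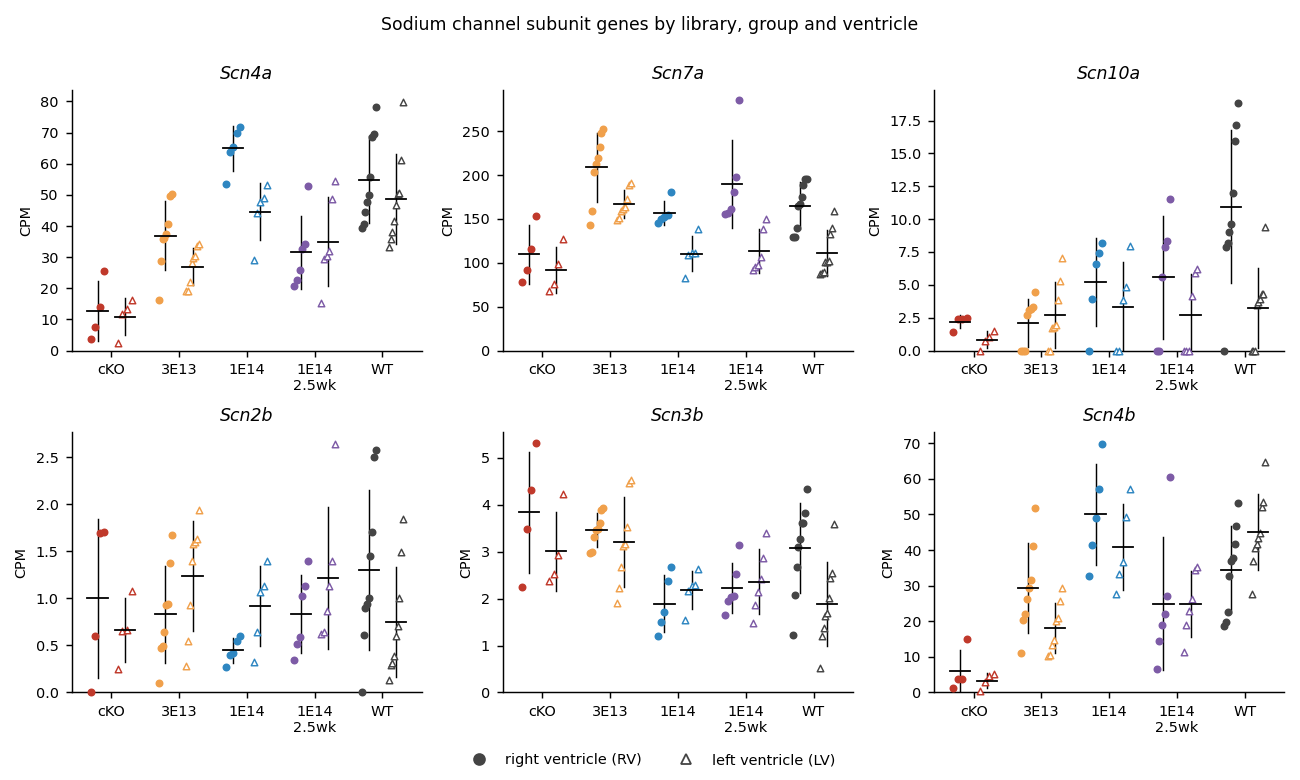
CPM (vertical axis, from 0) of the 6 genes in each of 64 libraries, by group (horizontal axis), with filled circles for RV and open triangles for LV. Horizontal bars are group means and vertical lines 1 SD, cut at 0. Scn4a and Scn4b lie lowest in cKO, and Scn2b stays at or below 2.64 CPM in every library.

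The first question was how the channel genes stood in untreated cKO hearts, and the calls that passed were all falls. In RV 4 of 6 tested members fell in cKO against WT and none rose, where 42.3% of all genes tested were called. In LV 2 of 5 tested members fell and none rose, where 46.6% of all genes were called, so the members were called about as often as genes in general in LV. The median log2 fold change of the tested members was -1.34 in RV and -1.97 in LV, against 0.02 and 0.05 over all genes tested. The LV median is the value of Scn10a, a gene near the limit of detection that was not called there (SE 1.17, adjusted p = 0.183 by edgeR). It therefore does not describe a fall of the members as a set. Scn4a and Scn4b were the members whose cKO and WT libraries did not overlap in either ventricle, which held for 23.6% of all genes in RV and 26.3% in LV.

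Scn4a, the α subunit gene best known from skeletal muscle, fell 4.32-fold in RV and 4.52-fold in LV of cKO animals. In RV it was at 3.72, 13.9, 25.6 and 7.44 CPM in the 4 cKO animals, and in 9 WT animals its lowest, median and highest levels were 39.3, 50.1 and 78.2 CPM. Every cKO RV library lay below every WT RV library. The difference was -2.11 (SE 0.38, adjusted p = 4.62e-04). In LV the 4 cKO animals had 2.39, 13.2, 11.7 and 16.1 CPM, against 33.4, 46.7 and 79.8 CPM in WT (lowest, median, highest), and the log2 fold change was -2.18 (SE 0.37, adjusted p = 2.43e-04). The 8 skeletal muscle markers summed to 0.132 to 3.10 CPM in a library. Of the 8, only Myh4 had no count in WT RV, and the same held in WT LV. The part of skeletal muscle in the level of Scn4a was not tested.

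The vector groups held more Scn4a than untreated cKO. In RV the AAV_3E13 animals had 16.2, 36.7 and 50.2 CPM (lowest, median, highest), the AAV_1E14 animals 65.5, 69.8, 71.9, 53.5 and 63.8 CPM, and the AAV_1E14_2.5wk animals 20.9, 29.2 and 52.8 CPM. Against cKO the log2 fold changes were 1.55 (SE 0.42, adjusted p = 0.00946), 2.39 (SE 0.43, adjusted p = 9.14e-04) and 1.33 (SE 0.45, adjusted p = 0.0305). All AAV_1E14 libraries lay above all cKO libraries, whereas the other 2 vector groups overlapped cKO. Against WT, Scn4a was lower in RV of AAV_3E13 animals, where the difference was -0.58 (SE 0.19, adjusted p = 0.0338), and of AAV_1E14_2.5wk animals, at -0.82 (SE 0.20, adjusted p = 0.00491). AAV_1E14 RV did not pass the test against WT, at 0.23 (SE 0.16, adjusted p = 0.290). In LV the AAV_3E13 animals had 19.1, 28.9 and 34.1 CPM, the AAV_1E14 animals 48.9, 47.7, 53.2, 29.1 and 44.2 CPM and the AAV_1E14_2.5wk animals 15.2, 31.2 and 54.4 CPM. Each was higher than cKO, by 1.29, 2.03 and 1.71 log2 units (adjusted p = 0.0249, 0.00466 and 0.0161), and only AAV_3E13 of the 3 was lower than WT, at -0.84 (SE 0.17, adjusted p = 7.37e-04). In the unequal-variance test on log2(TPM + 1) the LV calls against cKO were lost (adjusted p = 0.173, 0.0519 and 0.0649 in the same order). The AAV_3E13 call against WT in LV was lost there too (adjusted p = 0.0523). The call for AAV_1E14_2.5wk against cKO in RV was lost without any 1 of cKO_RV_2006, cKO_RV_2052, cKO_RV_3217 and AAV_1E14_2.5wk_RV_5814 (adjusted p = 0.0511 to 0.0827). It was also lost in the unequal-variance test on log2(TPM + 1) (adjusted p = 0.0695). The call for AAV_3E13 against WT in RV was lost in 5 of 9 alternatives, those with effective-length offsets, 1 fit over all groups and TPM, with adjusted p from 0.0910 to 0.398.

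Scn4b, the gene of the β4 subunit, which modulates channel gating in heart and neurons, had the lowest log2 fold change of the 6 genes in cKO in both ventricles, although in RV it was within 1 SE of those of Scn4a and Scn10a. In RV the 4 cKO animals had 1.35, 3.70, 14.95 and 3.77 CPM, against 18.6, 36.9 and 53.2 CPM in WT (lowest, median, highest). In LV they had 0.399, 4.76, 3.02 and 5.19 CPM, against 27.6, 43.4 and 64.6 CPM in WT. The lowest cKO LV library held 3 counts of the gene. All cKO libraries lay below all WT libraries of the same ventricle, although cKO_RV_3213 stood well above the other 3 cKO RV libraries. The log2 fold change was -2.55 (SE 0.50, adjusted p = 8.22e-04) in RV and -3.75 (SE 0.41, adjusted p = 7.67e-06) in LV, or 5.85-fold and 13.4-fold lower. The fall in RV and the fall in LV were not shown to differ, since the ventricle-by-group difference was 1.16 (SE 0.62, adjusted p = 0.461).

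With vector Scn4b was higher than in untreated cKO in each of the 6 comparisons. Its lowest, median and highest levels in RV were 11.2, 27.8 and 51.8 CPM in AAV_3E13 animals and 6.65, 20.5 and 60.5 CPM in AAV_1E14_2.5wk animals, and the 5 AAV_1E14 animals had 57.2, 48.9, 69.7, 32.7 and 41.5 CPM. Against cKO the RV log2 fold changes were 2.32 (SE 0.55, adjusted p = 0.00377) for AAV_3E13, 3.13 (SE 0.55, adjusted p = 7.89e-04) for AAV_1E14 and 2.10 (SE 0.69, adjusted p = 0.0253) for AAV_1E14_2.5wk. The last of these was lost without any 1 of cKO_RV_2006, cKO_RV_2052 and cKO_RV_3217 (adjusted p = 0.0579 to 0.0708). It was also lost in the unequal-variance test on log2(TPM + 1) (adjusted p = 0.0534). No vector group passed the test against WT in RV, with log2 fold changes of -0.24 (SE 0.26, adjusted p = 0.533), 0.52 (SE 0.24, adjusted p = 0.109) and -0.49 (SE 0.36, adjusted p = 0.305) in the same order. In LV the levels were 10.3, 17.4 and 29.2 CPM in AAV_3E13 (lowest, median, highest), 57.2, 36.7, 49.3, 27.6 and 33.4 CPM in AAV_1E14 and 11.3, 24.6 and 35.2 CPM in AAV_1E14_2.5wk. All 3 groups lay wholly above cKO LV, by 2.39, 3.59 and 2.90 log2 units (adjusted p = 0.00671, 9.34e-04 and 0.00228). The AAV_3E13 call against cKO in LV was lost in the unequal-variance test on log2(TPM + 1) (adjusted p = 0.0898). Of the 8 AAV_3E13 LV libraries 7 lay below all WT LV libraries, and the difference was -1.31 (SE 0.21, adjusted p = 7.71e-05). AAV_1E14_2.5wk LV did not pass against WT, at -0.85 (SE 0.22, adjusted p = 0.0608), and passed without AAV_1E14_2.5wk_LV_5814 (-0.97, adjusted p = 0.0367).

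**Figure D2:**
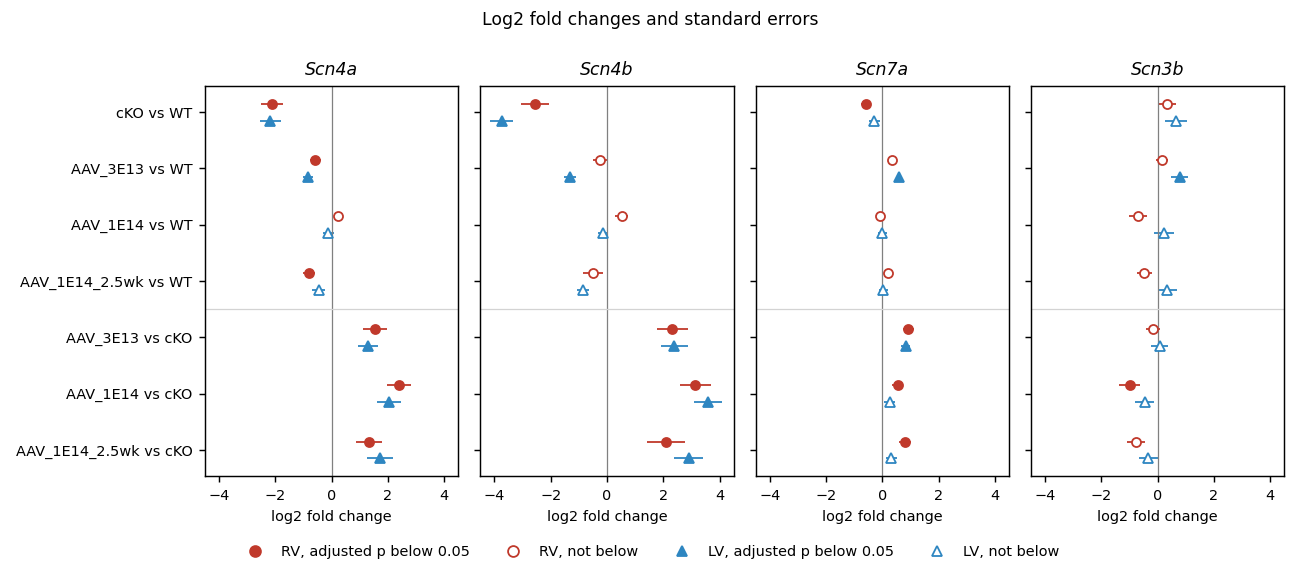
Log2 fold changes (horizontal axis) with SE bars for Scn4a, Scn4b, Scn7a and Scn3b in each comparison with WT (upper 4 lines) and with cKO (lower 3 lines), with circles for RV, triangles for LV and filled symbols where the adjusted p was below 0.05. Scn4b in LV runs from -3.75 in cKO against WT to 3.59 in AAV_1E14 against cKO.

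Scn4a and Scn4b were compared within the 6 sets of at least 6 libraries. In RV, Pearson r = 0.94 and Spearman rho = 0.90 in AAV_3E13 RV (n = 8, exact permutation p = 0.00112 and 0.00456, adjusted 0.00417 and 0.0137). Both genes were also ordered almost alike in another vector group, with Pearson r = 0.95 and Spearman rho = 1.00 in AAV_1E14_2.5wk RV (n = 6, exact permutation p = 0.00139 and 0.00278, adjusted 0.00417 and 0.0137). WT animals had Pearson r = 0.71 and Spearman rho = 0.68 in WT RV (n = 9, exact permutation p = 0.0357 and 0.0503, adjusted 0.0429 and 0.0755). In LV, Pearson r = 0.97 and Spearman rho = 0.94 in AAV_1E14_2.5wk LV (n = 6, exact permutation p = 0.00417 and 0.0167, adjusted 0.00833 and 0.0333). WT LV had Pearson r = 0.74 and Spearman rho = 0.60 (n = 9, exact permutation p = 0.0225 and 0.0968, adjusted 0.0337 and 0.116). The relation did not pass the test in AAV_3E13 LV, with Pearson r = 0.38 and Spearman rho = 0.40 (n = 8, exact permutation p = 0.336 and 0.327, adjusted 0.336 and 0.327). Without the 2 libraries farthest from the median of Scn4a, Pearson r ran from 0.76 to 0.96 in the other 5 sets and was -0.06 in AAV_3E13 LV.

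**Figure D3:**
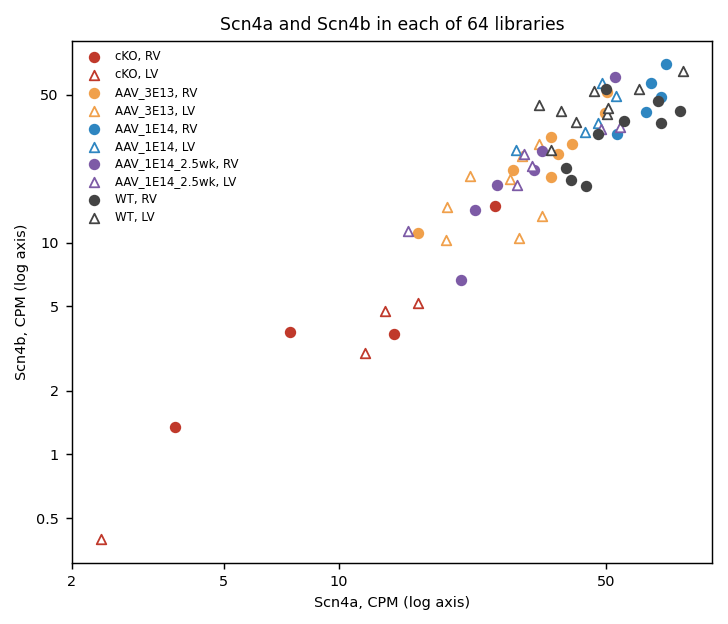
Scn4a (horizontal) against Scn4b (vertical), both in CPM on log axes, with 1 point for each of 64 libraries, coloured by group, circles for RV and triangles for LV. The 8 cKO libraries lie at the lower left, with cKO_RV_3213 nearest to the rest.

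Outside the channel family, the genes with a mean of at least 5 CPM whose log2 level followed Scn4a most closely over the 64 libraries were Ech1 (r = 0.95), Acaa2 (r = 0.94) and Ces1d (r = 0.94), of 10756 genes searched. For Scn4b they were Ech1 (r = 0.95), Cpt2 (r = 0.94) and Acaa2 (r = 0.94). Ech1, Acaa2 and Cpt2 encode mitochondrial enzymes of fatty acid oxidation, and Ces1d encodes a carboxylesterase. These values pool groups that differ in level, so they describe a shared pattern between groups as much as within them. Cardiomyocyte markers moved with both genes. In cKO RV 7 of 8 fell, with a median log2 fold change of -1.43, and their summed level ran from 9815 to 31362 CPM, against 33683 to 46680.2 CPM in WT RV. In cKO LV all 8 fell, with a median of -1.70, and the sum ran from 7783 to 22309.6 CPM, against 47214 to 55258 CPM in WT LV. Scn4a and Scn4b fell further than these medians in both ventricles, at the values above. In bulk tissue fewer cells of a type and less RNA per cell cannot be told apart, and the part of cardiomyocyte content in these results was not tested.

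Scn7a, the gene of the sodium-sensing Nax channel, was the most abundant member per length. In RV the 4 cKO animals had 77.8, 116, 91.4 and 154 CPM, against 129, 167 and 196 CPM in WT (lowest, median, highest). Of the 4 cKO libraries, 3 lay below all WT libraries and cKO_RV_3217 lay among them. The log2 fold change was -0.58 (SE 0.17, adjusted p = 0.0148), and it lost its call without cKO_RV_2006 (-0.44, adjusted p = 0.0608) and in the unequal-variance test on log2(TPM + 1) (-0.75, adjusted p = 0.122). In LV, with 75.7, 98.7, 68.0 and 127 CPM in cKO against 87.6, 101 and 159 CPM in WT, the difference did not pass the test, at -0.29 (SE 0.19, adjusted p = 0.239).

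In AAV_3E13 animals Scn7a was at 144, 216 and 253 CPM in RV and 149, 162 and 191 CPM in LV (lowest, median, highest). It was higher than in cKO, by 0.93 (SE 0.19, adjusted p = 0.00177) in RV and 0.83 (SE 0.15, adjusted p = 0.00486) in LV. Both calls were lost in the unequal-variance test on log2(TPM + 1) (adjusted p = 0.0515 in RV and 0.164 in LV). Scn7a was also higher than in WT LV, by 0.60 (SE 0.12, adjusted p = 5.05e-04), with 6 of 8 libraries above all WT libraries. In RV the difference from WT did not pass the test, at 0.34 (SE 0.12, adjusted p = 0.0517), and passed without WT_RV_5819 (0.36, adjusted p = 0.0487). With all libraries kept it also passed in DESeq2 (adjusted p = 0.0299). The same held in limma on log2(TPM + 1) and log2(TPM + 0.1) (adjusted p = 0.0376 and 0.0388), but not in the remaining alternatives. AAV_1E14 animals had 146, 151, 153, 181 and 154 CPM in RV and 82.2, 139, 112, 112 and 109 CPM in LV, and AAV_1E14_2.5wk animals 156, 172 and 286 CPM in RV and 92.0, 102 and 149.8 CPM in LV. Neither passed the test against WT in either ventricle, with log2 fold changes from -0.09 to 0.19. Against cKO both were higher in RV, by 0.54 (SE 0.18, adjusted p = 0.0292) and 0.81 (SE 0.22, adjusted p = 0.0108), and neither passed in LV. The call for AAV_1E14 against cKO in RV was lost without any 1 of cKO_RV_2006, cKO_RV_3213 and AAV_1E14_RV_5822 (adjusted p = 0.0643 to 0.0702). It was also lost with effective-length offsets (adjusted p = 0.0613) and in the unequal-variance test on log2(TPM + 1) (adjusted p = 0.138). In the latter test the AAV_1E14_2.5wk call against cKO in RV was lost too (adjusted p = 0.0702).

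Markers of Schwann cells, the glia of cardiac nerves, moved with Scn7a in some comparisons and not in others. Their summed level over 8 markers ran from 19.3 to 34.8 CPM in cKO RV, against 60.3 to 109 CPM in WT RV, and all 6 that were tested fell. There 5 of 8 fibroblast markers rose and 1 fell. In LV the sum ran from 25.1 to 29.9 CPM in cKO, against 28.3 to 76.7 CPM in WT, and 3 of 6 tested fell. In AAV_3E13 LV against WT, where Scn7a rose, none of 5 tested Schwann cell markers was called, whereas 7 of 8 fibroblast markers rose. In AAV_3E13 against cKO, where Scn7a rose in both ventricles, 2 of 8 fibroblast markers rose and 3 fell in each ventricle. The Schwann cell sum ran from 48.8 to 94.9 CPM in AAV_3E13 RV and from 36.3 to 73.1 CPM in AAV_3E13 LV. Both ranges lay wholly above those of cKO in the same ventricle. The genes most like Scn7a over the 64 libraries were Tmod2 (r = 0.85), C1s1 (r = 0.82) and Abca8a (r = 0.80), where Tmod2 encodes a tropomodulin, C1s1 a complement protease and Abca8a a lipid transporter. The part of either cell type in the level of Scn7a was not tested.

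Scn10a, the gene of Nav1.8, can be given only with a reservation. Where it was above 0, in 46 libraries, its estimated count was never a whole number, so its values rest on how the quantification divided reads that fit more than 1 gene. In the coding sequence of GENCODE M39 it shared 33 words of 31 bases with Scn4a and none with the other members. With that reservation, the 4 cKO RV animals had 2.48, 2.40, 2.40 and 1.43 CPM, against 0, 9.64 and 18.9 CPM in WT RV (lowest, median, highest). A single WT RV library was at 0 and the other 8 lay above every cKO RV library. The log2 fold change was -2.32 (SE 0.69, adjusted p = 0.0136), and it was not called on log2(TPM + 0.1) or in 1 fit over all groups (adjusted p = 0.0806 and 0.0633). AAV_3E13 RV had 0, 2.91 and 4.44 CPM with 3 of 8 libraries at 0, and was lower than WT, at -2.37 (SE 0.69, adjusted p = 0.0204).

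No other comparison of Scn10a with WT passed the test. AAV_1E14 RV had 3.95, 6.59, 0, 7.45 and 8.22 CPM and AAV_1E14_2.5wk RV 0, 6.75 and 11.5 CPM, with log2 fold changes against WT of -1.08 (SE 0.70, adjusted p = 0.252) and -0.98 (SE 0.74, adjusted p = 0.320). The AAV_1E14 difference from cKO in RV was not called and was called without AAV_1E14_RV_5726 (1.62, adjusted p = 0.00375). In LV the cKO difference from WT was -1.97 (SE 1.17, adjusted p = 0.183). The highest LV level was 9.44 CPM, in a WT library, and each of the 5 groups had at least 1 library at 0. Neuronal markers were low, and Chat and Chrna3 had no count in any library. The sum over 8 markers was 5.65 to 9.02 CPM in cKO RV, wholly above the 0.489 to 2.10 CPM of WT RV, a direction opposite to that of Scn10a. The part of divided reads in the level of Scn10a was not tested.

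**Figure D4:**
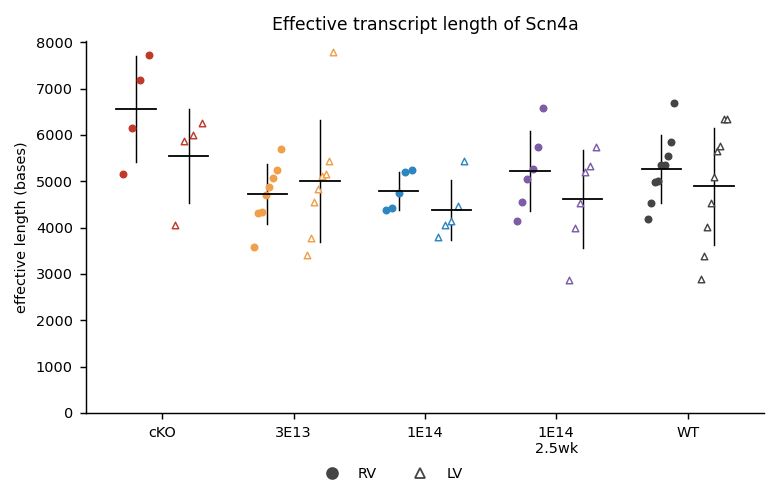
Effective transcript length of Scn4a (vertical axis, bases) by group (horizontal axis), with 1 point for each of 64 libraries, filled circles for RV and open triangles for LV, bars for the mean and lines for 1 SD. The lengths run from 2878 to 7789 bases.

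Effective length, which the study's quantification estimates for each gene and library and which divides the counts in TPM, differed widely for Scn4a. In cKO RV it was 7735, 5165, 7191 and 6142 bases, against 4176, 5345 and 6688 bases in WT RV (lowest, median, highest). The ranges overlapped, and 2 of 4 cKO RV libraries lay above every WT RV library. On the TPM scale Scn4a averaged 1.87 ± 1.27 in cKO RV against 8.70 ± 2.75 in WT RV. Scn3b lengths ran from 1320 to 4330 bases over all libraries, whereas those of Scn7a stayed between 5673 and 6479 bases.

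The remaining β subunit genes, Scn3b (β3) and Scn2b (β2), had few calls. Scn3b had 2.26, 5.31, 3.47 and 4.30 CPM in cKO RV, against 1.21, 3.28 and 4.33 CPM in WT RV (lowest, median, highest), and 2.92, 2.38, 2.51 and 4.22 CPM in cKO LV, against 0.517, 1.68 and 3.59 CPM in WT LV. These groups overlapped and did not pass the test, at 0.33 (SE 0.32, adjusted p = 0.435) and 0.66 (SE 0.39, adjusted p = 0.186). In AAV_3E13 LV, with 1.90, 3.14 and 4.53 CPM, it rose against WT by 0.78 (SE 0.29, adjusted p = 0.0421), a call that was lost without the filter on low counts (0.75, adjusted p = 0.0943). In AAV_1E14 RV, with 1.71, 2.38, 2.66, 1.20 and 1.51 CPM, it was lower than in cKO, at -0.99 (SE 0.37, adjusted p = 0.0452). That call was lost without any 1 of 3 cKO libraries or any 1 of 3 AAV_1E14 libraries, namely cKO_RV_2052, cKO_RV_3213, cKO_RV_3217, AAV_1E14_RV_2034, AAV_1E14_RV_5822 and AAV_1E14_RV_5825 (adjusted p = 0.0676 to 0.142).

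Against cKO, AAV_1E14_2.5wk RV was called for Scn3b only without cKO_RV_2006 (-0.96, adjusted p = 0.0253) among the libraries left out. Scn2b was not above 2.64 CPM in any library. In the comparisons between groups where it could be tested it was -0.34 (SE 0.78, adjusted p = 0.754) in cKO RV against WT RV, -0.28 (SE 0.72, adjusted p = 0.782) in AAV_3E13 RV against cKO RV, 0.86 (SE 0.53, adjusted p = 0.289) in AAV_3E13 LV against cKO LV, and -0.43 (SE 0.46, adjusted p = 0.539) in AAV_1E14 LV against AAV_3E13 LV. None passed, and with SE of 0.46 or more a small difference was not detectable at this depth. The 3 low members had no close partner in pattern. The genes most like Scn3b were Fam102b (r = 0.64), Zfp760 (r = 0.61) and Cd9 (r = 0.60). Those most like Scn2b were Cables1 (r = 0.49), Lrch1 (r = 0.47) and Magi1 (r = 0.44), and those most like Scn10a were Cacna1h (r = 0.40), Sbk3 (r = 0.39) and Chd1l (r = 0.39).

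Across the comparisons of vector animals with WT, the count of members called differed by group. In RV 2 of 5 tested members fell in AAV_3E13 (21.8% of all genes were called), 0 of 5 changed in AAV_1E14 (29.5%) and 1 of 5 fell in AAV_1E14_2.5wk (36.3%). In LV 2 of 5 rose and 2 fell in AAV_3E13 (39.2%), 0 of 5 changed in AAV_1E14 (0.00750%) and 0 of 5 changed in AAV_1E14_2.5wk (1.49%). For these 3 counts of 0 from edgeR, 2 members had an unadjusted p below 0.05 in AAV_1E14 RV, 0 in AAV_1E14 LV and 1 in AAV_1E14_2.5wk LV, and DESeq2 called 0, 0 and 1. Against cKO, 3 of 6 rose in AAV_3E13 RV (42.0%), 3 of 5 rose and 1 fell in AAV_1E14 RV (50.6%) and 3 of 5 rose in AAV_1E14_2.5wk RV (47.9%). In LV 3 of 6 rose in AAV_3E13 (18.0%), 2 of 5 in AAV_1E14 (35.4%) and 2 of 5 in AAV_1E14_2.5wk (33.3%). In the unequal-variance test on log2(TPM + 1), 2 members were called in AAV_3E13 RV, 2 in AAV_1E14 RV and 0 in AAV_1E14_2.5wk RV against cKO, and 0, 1 and 1 in LV. The comparisons with WT share their WT libraries and those with cKO their cKO libraries.

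The higher early dose was then compared with the lower. In RV 1 of 5 tested members was higher and 2 were lower in AAV_1E14 than in AAV_3E13 (9.97% of all genes were called), and in LV 2 of 6 were higher and 1 was lower (19.0%). Scn4a was higher at the higher dose, by 0.79 (SE 0.20, adjusted p = 0.0212) in RV, where every AAV_1E14 library lay above every AAV_3E13 library, and by 0.71 (SE 0.17, adjusted p = 0.00943) in LV. Scn4b was higher in LV, by 1.17 (SE 0.25, adjusted p = 0.00591), and did not pass in RV, at 0.75 (SE 0.28, adjusted p = 0.0986). Scn7a was lower at the higher dose, at -0.44 (SE 0.13, adjusted p = 0.0450) in RV and -0.61 (SE 0.11, adjusted p = 0.00188) in LV, where the groups did not overlap. Scn3b was lower in RV, at -0.88 (SE 0.25, adjusted p = 0.0356). In RV the 3 calls were not stable, since leaving out AAV_1E14_RV_2034 left 0 of them, leaving out any 1 of AAV_1E14_RV_5726, AAV_1E14_RV_5822 and AAV_1E14_RV_5825 left 1, and 0 were called on log2(TPM + 1). In LV the calls of Scn4a and Scn7a were lost in the unequal-variance test on log2(TPM + 1) (adjusted p = 0.0691 and 0.0910). That of Scn4a in LV was also lost in 1 fit over all groups (adjusted p = 0.0765). Cardiomyocyte markers moved with Scn4a and Scn4b, 5 of 8 being higher in RV, while 7 of 8 were higher in LV. Fibroblast markers moved with Scn7a, and 5 of 8 were lower in RV, while 6 of 8 were lower in LV. Their part was not tested.

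At the higher dose, late and early dosing differed in Scn4a in RV. It was lower in AAV_1E14_2.5wk than in AAV_1E14, at -1.03 (SE 0.20, adjusted p = 0.0100), with every late-dosed library below every early-dosed one. This was the only 1 of 5 tested members called in RV (8.93% of all genes were called), and the call was lost in the unequal-variance test on log2(TPM + 1) (-1.11, adjusted p = 0.0740). Of the cardiomyocyte markers 3 of 8 were lower there, with a median log2 fold change of -0.43, and 3 of 8 fibroblast markers were higher, and their part was not tested. Scn4b did not pass the test, at 24.9 ± 18.8 CPM in AAV_1E14_2.5wk RV and 50.008 ± 14.2 CPM in AAV_1E14 RV (SE of the log2 difference 0.41, adjusted p = 0.141), with 5 of 6 late-dosed libraries below all early-dosed ones. In LV 0 of 5 members were called, as was no gene (0%) of 13234 by edgeR, of which 964 had an unadjusted p below 0.05, and DESeq2 called 0 members. There Scn4a was at -0.35 (SE 0.27, adjusted p = 0.830) and Scn4b at -0.72 (SE 0.27, adjusted p = 0.586).

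The right and left ventricles of the same animals were compared within each group. In WT animals Scn7a was higher in RV than in LV, by 0.57 (SE 0.13, adjusted p = 0.00255), with 6 of 9 RV libraries above all LV libraries, and it was the only 1 of 5 tested members called (27.7% of all genes were). Schwann cell markers moved the same way, with 5 of 6 tested higher in RV. With the animal as a replicate block, Scn3b was also higher in WT RV (0.77, adjusted p = 0.0310) and Scn4b lower (-0.42, adjusted p = 0.0375). In the other groups 0 of 5 members were called, in cKO (0.00726% of all genes), AAV_3E13 (20.2%), AAV_1E14 (2.95%) and AAV_1E14_2.5wk (0.0226%). Without a block 0, 3, 2 and 1 members had an unadjusted p below 0.05 in these groups, and DESeq2 called 0, 2, 2 and 1. With the block, RV was higher in Scn4b in AAV_3E13 (0.65, adjusted p = 0.0288), in Scn4a (0.54, adjusted p = 0.0178) and Scn7a (0.50, adjusted p = 0.0303) in AAV_1E14, and in Scn7a in AAV_1E14_2.5wk (0.73, adjusted p = 0.0176). In AAV_1E14 and AAV_1E14_2.5wk every RV library held more Scn7a than every LV library of its group.

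Whether a group's difference from WT was the same in both ventricles was tested as a ventricle-by-group difference (RV minus LV of the log2 difference from WT). Scn4b in AAV_3E13 was the only member called, at 1.08 (SE 0.34, adjusted p = 0.0132). Its level was 29.2 ± 12.7 CPM in AAV_3E13 RV and 34.5 ± 12.1 CPM in WT RV, but 18.1 ± 7.01 CPM in AAV_3E13 LV and 45.1 ± 10.7 CPM in WT LV. That was 1 of 6 members where 36.9% of all genes were called. None of 6 was called for cKO (0.0272% of all genes), AAV_1E14 (20.0%) or AAV_1E14_2.5wk (18.4%), and 0, 1 and 0 members had an unadjusted p below 0.05. That 1 member was Scn2b, near the limit of detection, at -1.80 (SE 0.83, unadjusted p = 0.0386 by edgeR, adjusted p = 0.125). With the animals as a replicate block, Scn4b was called for AAV_1E14 (0.70, adjusted p = 0.0280). Of the cardiomyocyte markers in AAV_3E13, 2 of 8 were higher and 2 lower than WT in RV, and all 8 were lower in LV. These calls come from separate comparisons in each ventricle, which do not test a difference between ventricles. The part of these markers was not tested.

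Of the other subunit genes of the family, Scn3a and Scn2a1, α subunit genes best known from brain, did not pass the test in cKO against WT. Scn3a was at 0.40 (SE 0.34, adjusted p = 0.369) in RV and 0.69 (SE 0.31, adjusted p = 0.0859) in LV. Scn2a1 was at 0.27 (SE 0.66, adjusted p = 0.769) in RV and 0.80 (SE 0.48, adjusted p = 0.186) in LV.

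Genes for proteins that bind, traffic or modify sodium channels formed a second list. Of its 15 genes, 13 were tested in each ventricle, and 9 fell in cKO RV and 10 in cKO LV with none rising, with median log2 fold changes of -0.54 and -0.65, where 42.3% and 46.6% of all genes tested were called. Cardiomyocyte markers moved the same way, 7 of 8 falling in cKO RV and all 8 in cKO LV, and their part was not tested. Fgf13, a fibroblast growth factor homologous factor that binds the C terminus of sodium channel α subunits, fell, at -1.67 (SE 0.16, adjusted p = 1.99e-06) in RV and -2.18 (SE 0.23, adjusted p = 5.59e-06) in LV. Nedd4l, which encodes a ubiquitin ligase that acts on sodium channels, and Slmap, which encodes a sarcolemma-associated protein, fell, at -1.10 and -0.73 log2 units in RV (adjusted p = 1.78e-04 and 4.02e-04). Fgf14, a relative of Fgf13, was at -1.75 (SE 0.38, adjusted p = 0.00180) in RV. In LV the smallest p-values after Fgf13 were those of Gpd1l, at -0.95 (SE 0.12, adjusted p = 2.88e-05), and Rangrf, whose product MOG1 aids surface expression of sodium channels, at -1.81 (SE 0.29, adjusted p = 1.28e-04), and Slmap was at -1.09 (SE 0.19, adjusted p = 2.48e-04). Against cKO, 9 of 13 rose in AAV_3E13 RV (42.0% of all genes were called), 11 in AAV_1E14 RV (50.6%) and 9 in AAV_1E14_2.5wk RV (47.9%). In LV 5 of 13 rose in AAV_3E13 (18.0%), 9 in AAV_1E14 (35.4%) and 9 in AAV_1E14_2.5wk (33.3%).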

How the data were processed

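Right and left ventricles of 32 mice were sequenced as paired reads. The sources name both polyA RNA and a stranded kit with ribosomal RNA depletion, so which RNA was selected is not settled here. Per the study's methods the authors trimmed reads with fastp and quantified them with Salmon 1.8.0 (with sequence, GC and position bias terms) against GENCODE M30 (GRCm39), summed to genes with tximport. The deposited tables hold estimated counts per gene, TPM set by the authors, and effective lengths in bases from the authors' quantification, for 64 libraries. Totals ran from 7.96 M to 14.6 M counts (M stands for 1e+06), of which 16.6% to 40.2% were mitochondrially encoded. The unnamed row held at most 0.00136% and was left out.

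Estimated counts were rounded (totals changed by at most 5.24e-04%), the 37 mitochondrial genes left out as in the study, and libraries scaled by TMM. For each comparison edgeR 4.0.16 (R 4.3.3) filtered low counts (filterByExpr) and fitted a quasi-likelihood F test on the groups compared, two-sided, with Benjamini-Hochberg adjustment at 0.05. The study itself compared log2(TPM + 1) by an unequal-variance test, which was run as an alternative, as were DESeq2 1.42.0, limma 3.58.1 on log2(TPM + 1) and log2(TPM + 0.1), other scalings and filters, effective-length offsets, 1 fit over all groups, and leaving out libraries. The scripts were tested on simulated data. All 6 members were named in the comparisons; of the related lists up to 4 genes per ventricle with the smallest p in cKO against WT were named, and for patterns the 3 genes of highest Pearson r on log2(CPM + 0.5). The members and lists were chosen with earlier results of these data known. Groups came from the sample labels, where nothing but the animal number separates replicates.

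RV and LV libraries with the same number were taken, by label, to come from the same animal, so RV against LV was also fitted with the animal as a replicate block. For number 5814 the RV and LV libraries differed in Xist and Ddx3y, and no fit with the block was run without that pair. Over 15313 genes the deviations of such pairs correlated with a median r of 0.13 (lowest -0.04, highest 0.57), above 0.1 in 21 of 32 animals. Positions and shared coding words came from the GENCODE M39 annotation and the GRCm39 genome. Some genes of the lists are not reported here.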

Additional observations from a re-analysis of the deposited data

Results flagged for a closer look

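Of 60 sets of 1 member in 1 group of 4 to 10 libraries, 4 held a library far from the rest by Dixon's criterion, which chance gives in about 1 in 20 sets. Scn7a stood high in AAV_1E14_RV_5822, at 180.5 CPM (the highest of 5), and in AAV_1E14_2.5wk_RV_5806, at 286 CPM (the highest of 6). Scn10a stood low in cKO_RV_3217, at 1.43 CPM (the lowest of 4), and high in WT_LV_2004, at 9.44 CPM (the highest of 9). The AAV_3E13 difference of Scn4b from WT was not the same in both ventricles, with RV minus LV at 1.08 on the log2 scale (edgeR, SE 0.34, adjusted p = 0.0132).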

How the results depend on the processing

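Of 1624 values of members under alternatives, 1525 stayed on their side of the threshold with their direction where called, 71 lost a call, 28 gained one, and no called value changed sign. The counts of members called that moved by over 1.5 times were as follows, and smaller moves, such as 3 for cKO against WT in RV in 1 fit over all groups, are not listed. The unequal-variance test on log2(TPM + 1) gave 1 for AAV_3E13 against WT in RV, 2 for AAV_1E14 and 0 for AAV_1E14_2.5wk against cKO in RV, 0 for AAV_1E14_2.5wk against AAV_1E14 in RV, 0 for AAV_1E14 against AAV_3E13 in RV and 1 in LV, and 0, 1 and 1 for AAV_3E13, AAV_1E14 and AAV_1E14_2.5wk against cKO in LV. Limma on log2(TPM + 1) and on log2(TPM + 0.1) gave 0 for AAV_1E14 against AAV_3E13 in RV. There no filter, effective-length offsets and 1 fit over all groups each gave 1. A fit over all groups gave 1 for AAV_3E13 and 1 for AAV_1E14 against WT in RV. Effective-length offsets gave 1 for AAV_3E13 against WT in RV, 1 for AAV_1E14_2.5wk against WT in LV and 2 for RV against LV in WT. DESeq2 gave 1 for AAV_1E14_2.5wk against WT in LV and 2, 2 and 1 for RV against LV in AAV_3E13, AAV_1E14 and AAV_1E14_2.5wk. In AAV_3E13, RLE size factors and keeping mitochondrial genes each gave 1. Leaving out 1 library gave 2 to 5 for AAV_1E14 and 1 to 3 for AAV_1E14_2.5wk against cKO in RV, 0 to 2 for AAV_1E14 against AAV_3E13 in RV, 0 to 1 for AAV_1E14_2.5wk against WT in LV and 0 to 1 for RV against LV in AAV_1E14, the 1 being without the animal of AAV_1E14_RV_2043. Except for what a setting itself removes, the cause was not tested.

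With the animal as a replicate block, the counts for RV against LV were 1 in AAV_3E13, 2 in AAV_1E14, 1 in AAV_1E14_2.5wk and 3 in WT, and 1 for the ventricle-by-group difference of AAV_1E14. The block changed no other count by over 1.5 times. The TPM scale moved the median of all genes by up to 0.32 log2 units (AAV_3E13 against cKO in RV). Scn2b, Scn3b and Scn10a are limited by depth.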
